A study of Homo sapiens with 240 samples.

Results

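The effect of changing the AMPK phosphosites of FNIP1 on the transcriptional response to the AMPK activator 991 was measured in HEK 293T cells. The cells lacked endogenous FNIP1 and had been given back a FNIP1 cDNA, either SA5, in which 5 AMPK phosphosites are alanine, or WT FNIP1. The effect was taken at 2, 4, 8 and 16 h as the change from DMSO to 991 in SA5 cells minus the same change in WT FNIP1 cells, on log2(TPM + 1), where TPM is the deposited length-normalized expression value. It rests on 28 of the 240 polyadenylated RNA libraries of the series, 13 of SA5 and 15 of WT FNIP1 cells. Each arm was sampled under DMSO (0 h) and after 2, 4, 8 and 16 h of 991, with 3 libraries per group. SA5 under DMSO and SA5 at 8 h have 2 libraries each, because replicate 1 of each stood apart from its group and was left out. All groups share the parental line and the loss of endogenous FNIP1, the reconstituted protein is the sole difference named, and the labels give neither the number of clones nor the promoter of the cDNA.

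AMPK is the kinase that senses a fall in cellular energy, and 991 is a small molecule that activates it directly. FNIP1 works in a complex with folliculin (FLCN), which switches the nucleotide state of the lysosomal GTPases RagC and RagD and so lets mTORC1 phosphorylate the transcription factors TFEB and TFE3. Phosphorylated TFEB and TFE3 stay in the cytoplasm, and when the FLCN complex is inhibited they enter the nucleus and switch on genes of lysosomes, autophagy and the Rag pathway itself. The design asks whether phosphorylation of FNIP1 by AMPK is needed for the lysosomal and mitochondrial gene responses to 991.

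FNIP1 itself (chromosome 5, 131677597 to 131797063, minus strand, GRCh38) was measured first as a check of the arms. It stood at 179 and 172 TPM in the SA5 DMSO libraries used, against 241, 236 and 221 TPM in the WT FNIP1 DMSO libraries. Over all times it lay between 164 and 195 TPM in the 13 SA5 libraries and between 221 and 271 TPM in the 15 WT FNIP1 libraries, so the arms did not overlap. The difference under DMSO was -0.40 (SE 0.05, adjusted p = 1.3e-05, limma), where 13.7% of 13290 tested genes passed in either direction. SA5 cells therefore carried less FNIP1 transcript throughout, and the part of this level in the results was not tested. In bulk RNA, fewer cells with the cDNA and less transcript per cell cannot be told apart. FLCN, the partner of FNIP1, stood at 862 to 1088 TPM in SA5 and 831 to 1083 TPM in WT FNIP1 libraries. In the separately normalized AMPK table of the same series, WT cells under DMSO had 5.54 to 6.08 TPM of FLCN and 2.65 to 2.98 TPM of FNIP1, on transcript models of 3670 and 6348 bases rather than the 1731 and 1752 bases used here. The labels name no FLCN cDNA, and with such levels the response of endogenous FLCN cannot be read from these libraries. FNIP2, the paralogue of FNIP1, had the same model of 6849 bases in both tables and lay at 3.22 to 4.64 TPM in SA5, against 3.67 to 5.39 TPM in WT FNIP1 libraries.

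**Figure D1:**
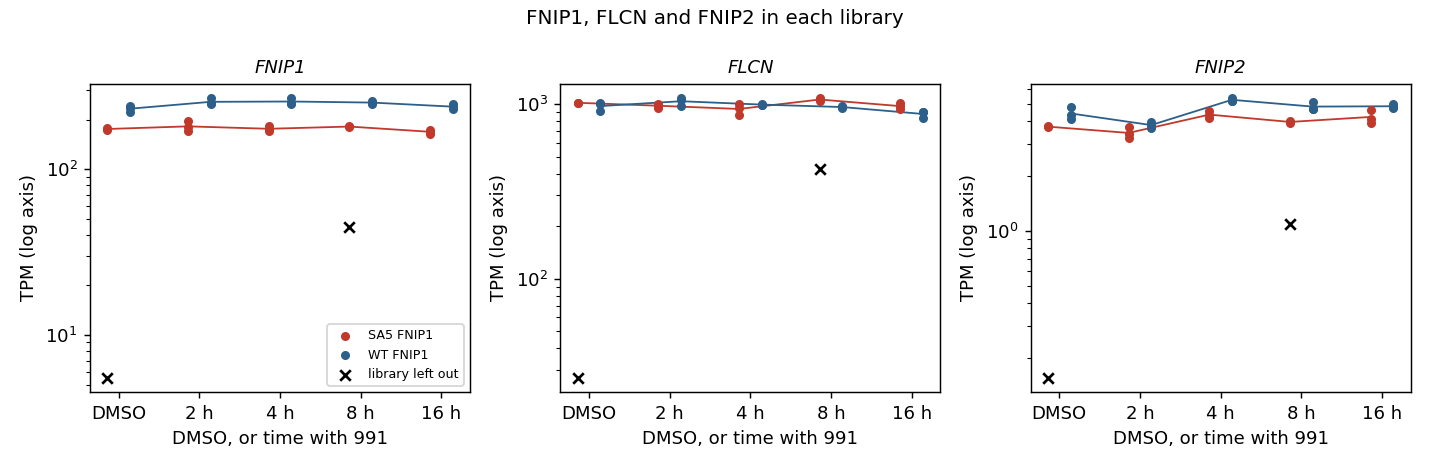
FNIP1, FLCN and FNIP2 in TPM (log axis) in each library, with SA5 in red left of WT FNIP1 in blue at DMSO and each time with 991. Points are libraries, lines join the group means of the libraries used, and crosses mark the 2 SA5 libraries left out, which lie below the others for all 3 genes.

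The library of SA5 replicate 1 under DMSO had 5.47 TPM of FNIP1 and 26.9 TPM of FLCN, and 40.5% of genes differed at least 2-fold from the mean of its group. Its transcripts over 5000 bases lay a median of -1.35 (log2) from that mean and those under 1000 bases 0.16. The library of SA5 replicate 1 at 8 h had 45.05 TPM of FNIP1 and 426 TPM of FLCN, with 9.08% of genes off by at least 2-fold. In the other 28 libraries that share lay between 0.346% and 0.677%, and the listed TPM summed to between 410713 and 417140. The labels call the tissue kidney. Of 7 markers of the HEK line, 5 averaged at least 1 TPM in both arms, while of 11 adult kidney epithelium markers AQP2 and UMOD were at 0 in every library and 1 (LRP2) reached 1 TPM. Nothing in the labels says that replicates came from separate cultures, so p-values measure the spread between these libraries, which may be technical.

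In SA5 cells 991 changed 26.1% of the 13290 genes at 2 h, 44.9% at 4 h, 43.7% at 8 h and 49.3% at 16 h, and in WT FNIP1 cells 33%, 53.8%, 54.1% and 53.7%. The responses of the arms went the same way for most genes that changed in WT FNIP1 cells. At 4 h, 905 genes rose at least 1.5-fold with an adjusted p under 0.05 in WT FNIP1 cells, and 891 of them also lay above DMSO in SA5 cells, with a median change of 0.66 in SA5 and 0.72 in WT FNIP1 cells (log2). Of the 132 genes that fell by as much, 123 lay below DMSO in SA5 cells. At 16 h the counts were 546 of 556 rises and 213 of 222 falls. Across 13290 genes, Pearson's r between the SA5 and the WT FNIP1 response was 0.71 at 2 h, 0.82 at 4 h, 0.82 at 8 h and 0.82 at 16 h. In the separately normalized AMPK table (13362 genes), r between AMPK KO and AMPK WT responses was 0.41, 0.64, 0.80 and 0.86 at these times. The r values of SA5 and of AMPK deletion were not tested against each other. The genes counted were picked by their change in WT FNIP1 cells. That choice raises the WT FNIP1 median, so a lower SA5 median is no measure of a smaller response. These are descriptions across genes, which are not independent, each from libraries of one table and from arms with separate DMSO controls.

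In the test of the difference itself, limma called 0 genes at 2 h and 0 at 4 h at an adjusted p under 0.05 (0% of 13290). Without adjustment, 649 genes (4.88%) at 2 h and 793 (5.97%) at 4 h had a p under 0.05. Here and below a larger response means a difference above 0 and a smaller one a difference below 0, whichever way each arm moved. At 8 h, 2 genes had a larger response in SA5 cells (0.015%) and none a smaller one. At 16 h, 19 genes differed (0.143%), 14 with a larger response (0.105%) and 5 with a smaller one (0.0376%). Under median-ratio scaling the 22 genes called at 16 h split into 11 larger and 11 smaller. A moderated F test over the 4 times called 37 genes (0.278%). The 4 differences share the DMSO libraries of each arm, of which SA5 has 2. The median SE of a difference was 0.11 at 4 h and at 16 h, and 86% of genes at 4 h and 83.7% at 16 h had a difference within 0.2 of 0.

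The calls depended on the libraries entered. With all 30 libraries 2 genes passed at 16 h (CHAC1 and ANKRD1), with replicate 1 of every group left out 3 genes passed, and with replicate 2 or replicate 3 of every group left out none did. Omitting replicate 2 or 3 leaves 1 library of SA5 under DMSO. Within the same series, deletion of AMPK changed the 991 response of 127 of 13362 genes at 2 h (0.95%), of 663 of 13362 genes at 4 h (4.96%) and 1067 at 16 h (7.99%), and deletion of TFEB and TFE3 that of 642 of 13746 genes (4.67%) and 1739 (12.7%). Those tables were normalized separately and no library of theirs was left out, so the counts stand side by side and were not tested against each other.

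**Figure D2:**
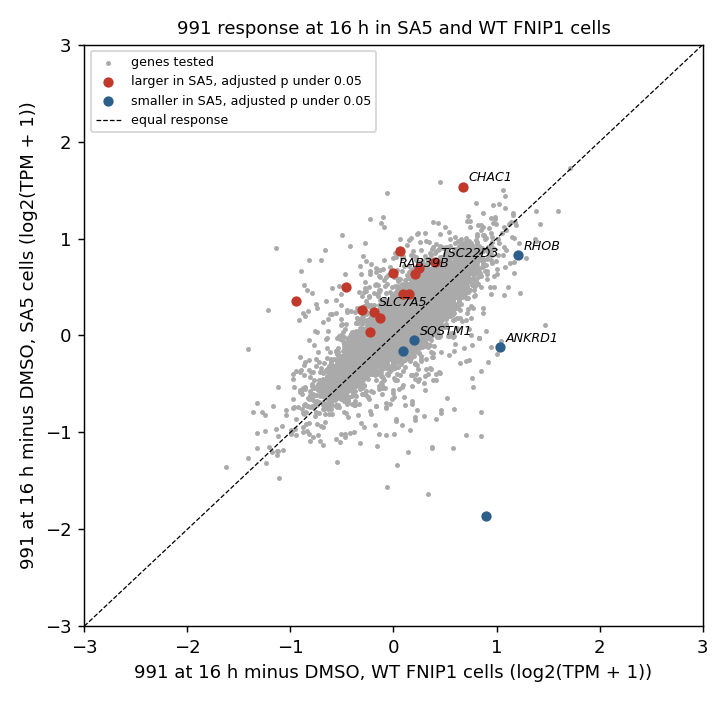
Response at 16 h (991 minus DMSO, log2(TPM + 1)) in SA5 cells on the vertical axis and in WT FNIP1 cells on the horizontal axis, one point per gene of 13290. Most genes lie along the dashed line of equal response, and the 19 genes that passed are coloured, 14 larger in SA5 in red and 5 smaller in blue.

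Some genes of the lysosome and of the FLCN pathway changed with 991 in both arms. Over all genes, 44.9% changed in SA5 and 53.8% in WT FNIP1 cells at 4 h. None of the lysosomal and FLCN pathway genes passed the test of a difference between the arms at 2, 4 or 8 h. Over all 13290 genes, 0% passed at 2 h, 0% at 4 h and 0.015% at 8 h, so 0 in a list is near that share. The FLCN pathway list includes FNIP1, which was given back as a cDNA, and FLCN, whose endogenous response cannot be read here. At 4 h, 16 of 41 lysosomal hydrolases and cofactors rose in SA5 cells and 24 of 41 in WT FNIP1 cells, against 31.8% and 37.9% of all genes. The median change was 0.14 in SA5 and 0.16 in WT FNIP1 cells. The median difference of the list was -0.03 at 4 h and 0.00 at 16 h, beside 0.00 and 0.03 over all genes. Of 33 lysosomal membrane proteins, 15 rose in SA5 and 18 in WT FNIP1 cells at 4 h, and 17 and 25 at 16 h (34.5% and 34.2% of all genes), with a median difference of -0.03 at both times. The 18 V-ATPase subunits tested, which build the pump that acidifies lysosomes, changed in both directions. At 16 h 4 rose and 4 fell in SA5 cells, against 34.5% and 14.8% of all genes. In WT FNIP1 cells 6 rose and 1 fell, against 34.2% and 19.5%. Counts in the arms rest on unequal numbers of DMSO libraries, and a difference between such counts was not tested.

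RRAGD encodes the RagD GTPase on which the FLCN complex acts, and it is a known TFEB target. It was at 3.90 and 3.72 TPM under DMSO and 7.20, 5.82 and 6.59 TPM at 4 h in SA5 cells. The WT FNIP1 libraries had 4.31, 4.49 and 5.10 TPM under DMSO and 8.08, 8.02 and 8.28 TPM at 4 h. Every 4 h library lay above every DMSO library of its arm, and the SA5 libraries lay below those of WT FNIP1 at both points. The change was 0.64 in SA5 (SE 0.09, adjusted p = 9.0e-06, limma) and 0.70 in WT FNIP1 cells (SE 0.08, adjusted p = 4.5e-07). The difference of -0.05 had a 95% interval of -0.32 to 0.21 (adjusted p = 0.97). At 16 h it was 0.00, with an interval of -0.26 to 0.26, beside -0.55 for AMPK deletion (adjusted p = 0.00036) in its own table.

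WIPI1, a phosphoinositide-binding protein needed to form autophagosomes, started lower in SA5 cells and rose in parallel. Under DMSO it was at 5.00 and 4.87 TPM in SA5 cells and 6.88, 7.04 and 7.07 TPM in WT FNIP1 cells, a difference of -0.43 (adjusted p = 9.9e-05, limma). At 4 h it was at 9.37, 8.33 and 9.07 TPM in SA5 cells and 11.4, 11.3 and 13.3 TPM in WT FNIP1 cells. SA5 and WT FNIP1 libraries did not overlap at either point. The responses of 0.74 and 0.70 differed by 0.04, with a 95% interval of -0.14 to 0.22, beside -0.53 for AMPK deletion (adjusted p = 0.016). FNIP2 rose less at 4 h, by 0.18 in SA5 (adjusted p = 0.033) and by 0.21 in WT FNIP1 cells (adjusted p = 0.0049), with an interval of the difference of -0.21 to 0.15, beside -0.40 for AMPK deletion (adjusted p = 0.080).

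HEXA, a lysosomal hexosaminidase subunit, climbed through the course. At 16 h it was at 52.03, 54.2 and 53.96 TPM in SA5 cells, against 39.5 and 36.9 TPM under DMSO. The WT FNIP1 libraries held 58.6, 57.3 and 58.9 TPM at 16 h, against 42.6, 45.2 and 41.7 TPM under DMSO. Both arms separated fully from their DMSO libraries, and the difference between the responses was 0.05 (95% interval -0.08 to 0.18). MCOLN1, the lysosomal calcium channel, rose by 0.24 in SA5 and 0.29 in WT FNIP1 cells at 4 h, and the difference of -0.04 had an interval of -0.28 to 0.19. GLA, a lysosomal galactosidase, had a difference of 0.00 at 16 h (interval -0.13 to 0.13), where AMPK deletion gave -0.58 (adjusted p = 0.0040). For HEXA at 16 h AMPK deletion gave -0.23 (adjusted p = 0.12) and for MCOLN1 at 4 h -0.20 (adjusted p = 0.29). Over the lists it lowered the response of 0 of 40 hydrolases and 1 of 33 membrane proteins at 4 h, against 2.81% of all genes, and of 5 and 7 at 16 h, against 5.33%, and it raised none.

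**Figure D3:**
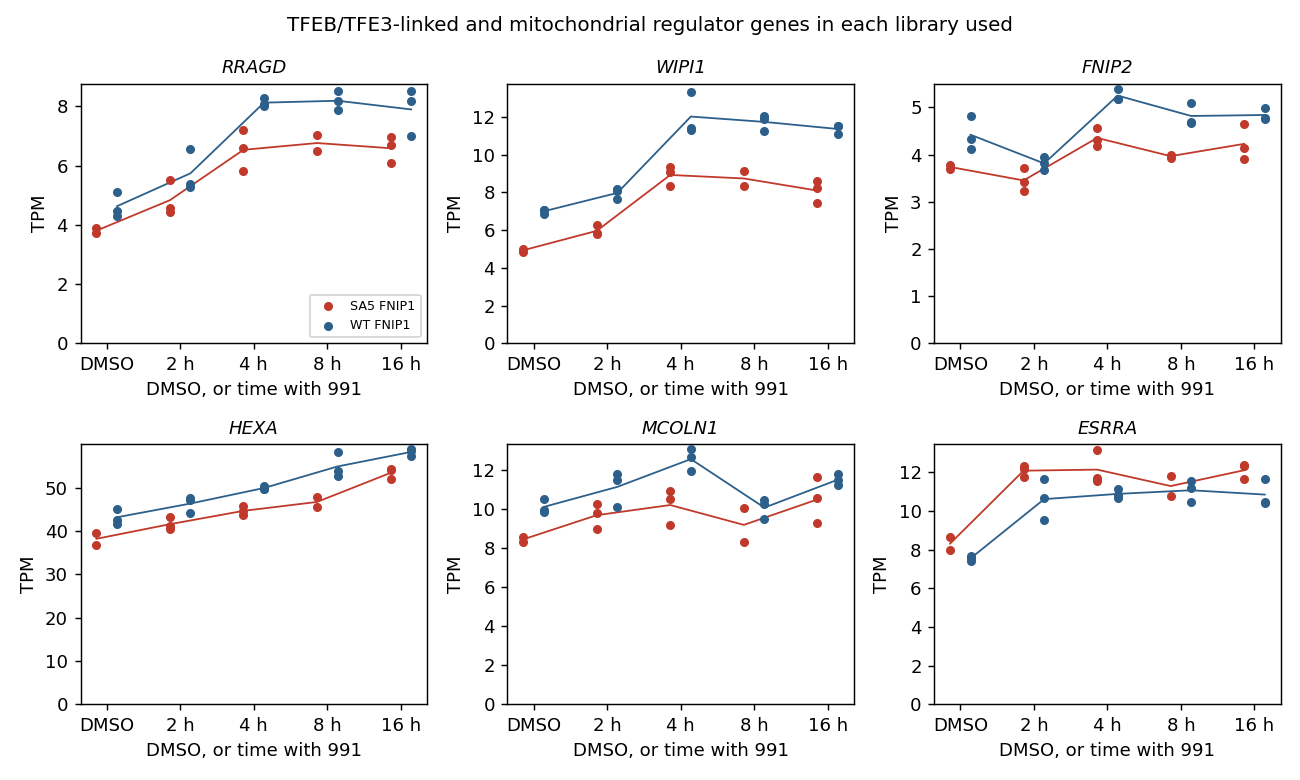
TPM of RRAGD, WIPI1, FNIP2, HEXA, MCOLN1 and ESRRA under DMSO and after 2, 4, 8 and 16 h of 991, with SA5 in red left of WT FNIP1 in blue. Points are the libraries used and lines join group means. The lines run nearly parallel. The SA5 mean lies below that of WT FNIP1 at every time for RRAGD, WIPI1, FNIP2, HEXA and MCOLN1, and above it for ESRRA.

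The E-box TCACGTGA, bound by TFEB and TFE3 and its own reverse complement, was searched in RefSeq promoter windows (GRCh38.p14, from 250 bases before to 50 after a gene start). It stands in 344 of all 35116 windows (0.98%) and in 12 of 106 windows (11.3%) of the 69 lysosomal and V-ATPase genes matched of 92. MCOLN1 has it in 2 places, starting 42 and 15 bases before the gene start. Its stretches, at chr19:7522571-7522600 and chr19:7522598-7522627 on the plus strand, are shown as an example of a lysosomal gene with the site that responded in both arms. Capitals mark the E-box.
MCOLN1 upstream: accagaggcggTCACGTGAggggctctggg
MCOLN1 near the start: gggctaccgggTCACGTGAccgaggcacag

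SQSTM1, the autophagy receptor p62, was the exception among autophagy genes. It was at 47.9, 49.7 and 46.3 TPM at 16 h in SA5 cells, against 48.9 and 50.2 TPM under DMSO. WT FNIP1 cells had 63.4, 64.5 and 64.5 TPM at 16 h, against 54.8, 57.1 and 55.2 TPM under DMSO. The 16 h libraries overlapped those of DMSO in SA5 cells and lay above them in WT FNIP1 cells. The response was 0.25 lower in SA5 cells (-0.25, SE 0.05, adjusted p = 0.023, limma). It was the 1 member of 41 autophagy genes that passed at 16 h, against 0.0376% of all genes with a smaller response, and with all 30 libraries the difference was -0.14 (adjusted p = 0.35).

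In the lists of the respiratory chain, the mitochondrial ribosome and the PGC-1 and ERR group, no difference between the arms passed at any time (limma). Over all 13290 genes, 0% passed at 2 and 4 h, 0.015% at 8 h and 0.143% at 16 h, so 0 in a list is near that share. In the list of 75 nuclear-encoded respiratory chain and ATP synthase subunits, 0 passed at 16 h, and the median difference was -0.02. For 74 mitochondrial ribosomal proteins it was 0.01 and for 10 genes of the PGC-1 and ERR group 0.02. Of the 75 at 16 h, 10 rose and 16 fell in SA5 cells, against 34.5% and 14.8% of all genes. In WT FNIP1 cells 14 rose and 18 fell, against 34.2% and 19.5%. AMPK deletion gave a smaller response of 0 of 75, 0 of 74 and 0 of 9 in these lists at 16 h, against 5.33% of all genes. It gave a larger one of 2, 5 and 0, against 2.66%. ESRRA, the nuclear receptor ERRα that drives respiratory genes, rose early in both arms. It was at 11.7, 13.2 and 11.6 TPM at 4 h in SA5 cells, against 8.65 and 7.96 TPM under DMSO. WT FNIP1 cells had 10.8, 10.7 and 11.1 TPM at 4 h, against 7.56, 7.39 and 7.69 TPM under DMSO. The groups with 991 lay above DMSO in both arms, and the responses of 0.50 and 0.47 differed by 0.02 (95% interval -0.17 to 0.21). CYCS, cytochrome c, fell in both arms at 16 h, by 0.49 in SA5 and by 0.58 in WT FNIP1 cells on the log2 scale. PPARGC1A, which encodes PGC-1α, stayed under 1 TPM in every library used and was not tested.

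Sterol genes, several of which differed in the AMPK table, gave differences that did not pass here. HMGCS1, an early enzyme of cholesterol synthesis, had a difference of 0.12 at 4 h (95% interval -0.05 to 0.29), beside -1.07 for AMPK deletion (adjusted p = 0.016). INSIG1, the sterol sensor that holds back that pathway, had -0.12 (interval -0.31 to 0.08), beside -1.54 (adjusted p = 1.1e-06). None of the 24 sterol genes passed at any time in the FNIP1 table, where 0% of all genes passed at 4 h and 0.143% at 16 h. After AMPK deletion 7 of 24 had a lower response at 4 h, against 2.81% of all genes in that table. Starting levels of the sterol genes differed: 12 of 24 were higher in SA5 than in WT FNIP1 cells under DMSO, against 3.12% of all genes.

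**Figure D4:**
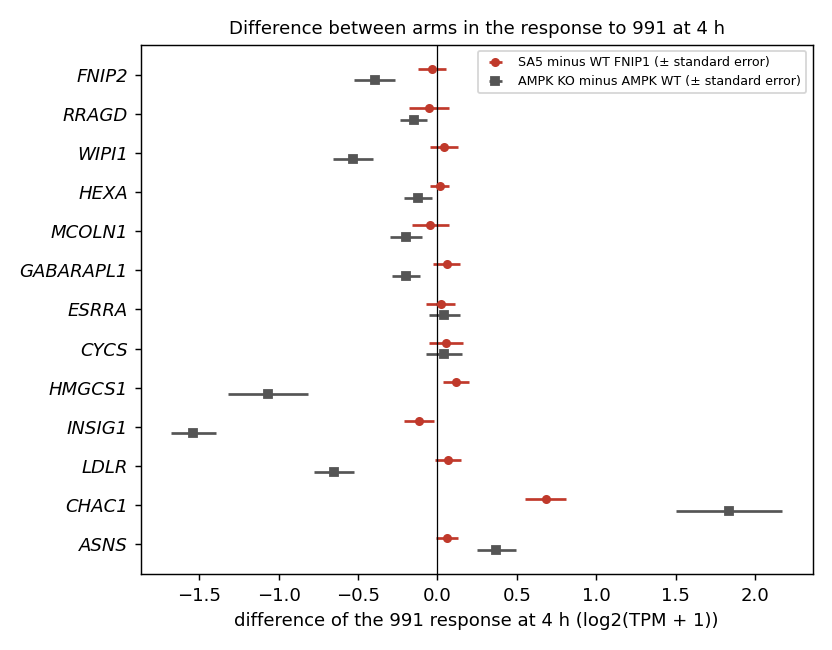
Difference of the 991 response at 4 h on the log2(TPM + 1) scale for 13 genes, SA5 minus WT FNIP1 as red circles and AMPK KO minus AMPK WT, from a separately normalized table, as grey squares, with bars of 1 standard error. The SA5 values of the lysosomal and sterol genes lie between -0.12 and 0.12, and CHAC1 stands at 0.68.

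The largest group of genes that passed belongs to the integrated stress response, the programme of the transcription factor ATF4 that raises amino acid uptake and synthesis, tRNA charging and one-carbon metabolism. At 16 h, 7 of 43 tested members had a larger response in SA5 cells and 0 a smaller one, against 0.105% of all genes. The differences of 37 of 43 were above 0, against 8024 of all 13290 genes. Their median was 0.19 against 0.03 over all genes. In SA5 cells 34 members rose and 2 fell at 16 h, against 34.5% and 14.8% of all genes, with a median change of 0.43. In WT FNIP1 cells 27 rose and 5 fell, against 34.2% and 19.5%, with a median of 0.21. The median difference was 0.01 at 2 h, 0.07 at 4 h and 0.15 at 8 h. At 8 h 22 members rose in SA5 cells, against 30.7% of all genes, and 18 in WT FNIP1 cells, against 36.5%. These members were chosen with earlier results of the same data known. With all 30 libraries 1 member (CHAC1) passed at 16 h, and with 1 replicate number left out of every group 0 or 1 did.

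CHAC1, a glutathione-degrading enzyme and a sensitive ATF4 target, had the largest difference of these. In SA5 cells it was at 3.86 and 3.61 TPM under DMSO, 4.12, 4.83 and 5.03 TPM at 2 h, 6.23, 5.55 and 4.84 TPM at 4 h, 11.9 and 11.9 TPM at 8 h, and 11.6, 13.2 and 13.4 TPM at 16 h. In WT FNIP1 cells it was at 4.56, 3.66 and 4.15 TPM under DMSO, 2.44, 2.63 and 2.60 TPM at 2 h, 3.00, 3.80 and 3.39 TPM at 4 h, 7.45, 6.34 and 6.91 TPM at 8 h, and 6.65, 7.37 and 7.55 TPM at 16 h. The arms overlapped under DMSO and were apart at every time with 991, with SA5 higher. The difference was 0.68 at 4 h (adjusted p = 0.10, limma), 0.82 at 8 h (SE 0.14, adjusted p = 0.028) and 0.85 at 16 h (SE 0.13, adjusted p = 0.0065). At 16 h it was 0.87 with all 30 libraries (adjusted p = 0.011). The calls of CHAC1 and SLC7A5 at 8 h were both lost with the replicate block (adjusted p = 0.064), with a pseudocount of 0.1 (adjusted p = 0.057) and with the 4 groups compared alone (adjusted p = 0.11).

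SLC7A5, which carries large neutral amino acids into cells, fell early in both arms and recovered above its starting level in SA5 cells. In SA5 cells it was at 41.1 and 39.4 TPM under DMSO and 47.6, 49.1 and 46.9 TPM at 16 h. In WT FNIP1 cells it was at 39.999, 37.8 and 36.9 TPM under DMSO and 31.7, 33.2 and 35.3 TPM at 16 h. The arms overlapped under DMSO and separated at 16 h. The difference was 0.46 at 8 h (SE 0.08, adjusted p = 0.028, limma) and 0.43 at 16 h (SE 0.07, adjusted p = 0.012). SESN2, a leucine sensor that restrains mTORC1, was at 40.3, 46.4 and 44.9 TPM at 16 h in SA5 cells, against 26.4 and 26.97 TPM under DMSO. In WT FNIP1 cells it was at 28.8, 28.2 and 31.7 TPM at 16 h, against 24.8, 25.5 and 23.6 TPM under DMSO. Both arms lay above DMSO at 16 h, and the response was larger in SA5 cells by 0.44 (SE 0.08, adjusted p = 0.012). SESN2 was also the 1 member of 23 FLCN, Rag and mTORC1 genes that passed at 16 h, against 0.105% of all genes with a larger response. DDIT4, another mTORC1 brake and a member of both lists, had larger differences that did not pass, 0.69 at 8 h and 0.53 at 16 h. At 16 h it was at 62.2, 64.5 and 61.3 TPM in SA5 and 36.2, 35.5 and 37.4 TPM in WT FNIP1 cells.

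The other 4 members belong to serine and one-carbon metabolism and to tRNA charging. PSAT1, an enzyme of serine synthesis, was at 159, 156 and 172 TPM at 16 h in SA5 cells and at 96.6, 108 and 105 TPM in WT FNIP1 cells. It started higher in SA5 cells, at 106 and 103 TPM, against 87.4, 90.01 and 89.4 TPM in WT FNIP1 cells. The response was larger in SA5 cells by 0.42 (SE 0.08, adjusted p = 0.023, limma). The mitochondrial folate enzymes MTHFD2 and SHMT2 had differences of 0.34 (SE 0.06) and 0.31 (SE 0.05), and MARS, the methionyl-tRNA synthetase, 0.28 (SE 0.04). With all 30 libraries PSAT1 had 1.01, MTHFD2 1.025, MARS 0.62 and SLC7A5 0.74, each with an adjusted p of 0.35, and under median-ratio scaling SHMT2 lost its call (adjusted p = 0.080). SHMT2 moved in opposite directions: it rose by 0.18 in SA5 cells (adjusted p = 0.00072) and fell by 0.13 in WT FNIP1 cells (adjusted p = 0.0036). Members that did not pass at 16 h include PCK2 at 0.36 (adjusted p = 0.068), ASNS at 0.25 (adjusted p = 0.18), ATF4 itself at 0.16 (adjusted p = 0.39), DDIT3 at 0.13 (adjusted p = 0.86) and GDF15 at -0.28 (adjusted p = 0.78).

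**Figure D5:**
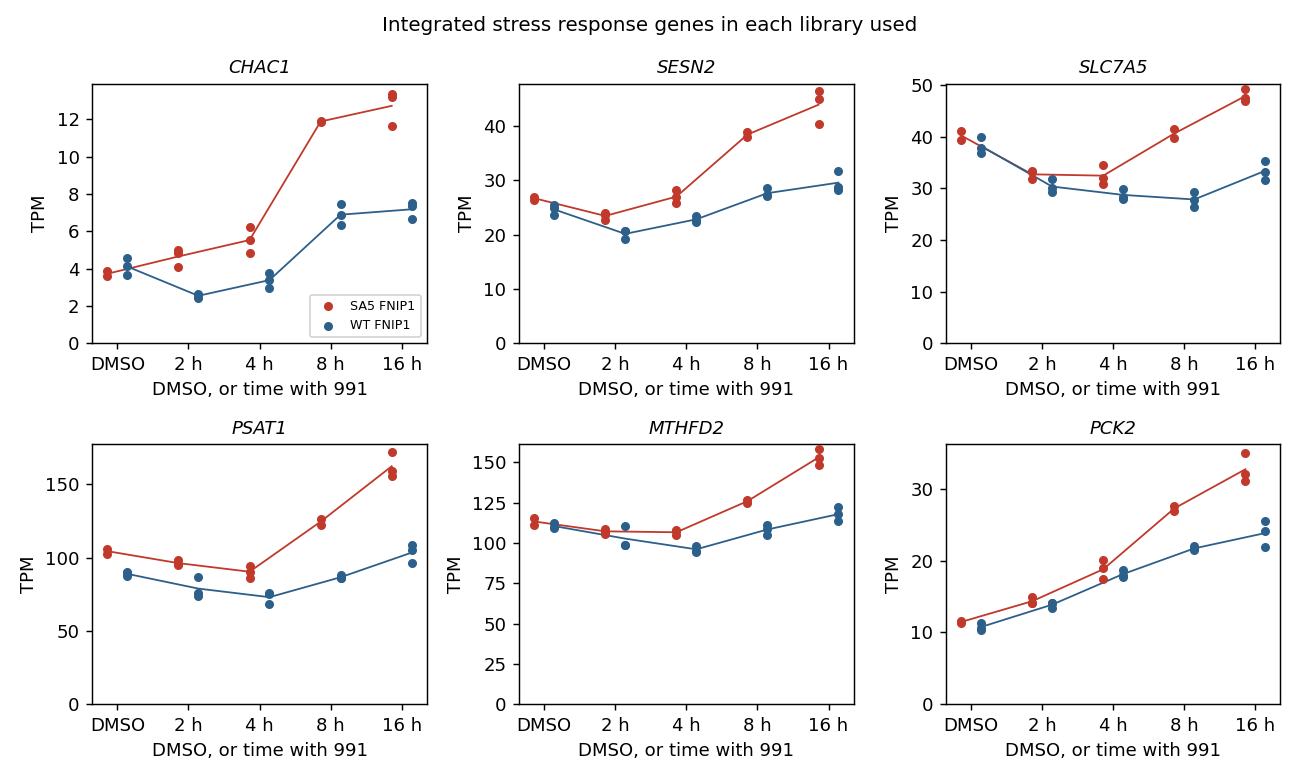
TPM of CHAC1, SESN2, SLC7A5, PSAT1, MTHFD2 and PCK2 under DMSO and after 2, 4, 8 and 16 h of 991, with SA5 in red left of WT FNIP1 in blue. Points are the libraries used and lines join group means. Under DMSO the SA5 libraries lie above those of WT FNIP1 for PSAT1, SESN2 and PCK2. For SLC7A5 and MTHFD2 the libraries overlap with a higher SA5 mean, and for CHAC1 with a lower one. SA5 lies above WT FNIP1 at 8 and 16 h for all 6 genes.

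In the AMPK table, deletion of the kinase gave a larger response of 17 of 42 members at 4 h (2.15% of all genes were larger) of 29 at 8 h (2.99%) and of 16 at 16 h (2.66%), and a smaller one of 0 at these times. In the TFEB and TFE3 table, deletion of both factors gave a smaller response of 8 of 43 members at 4 h (2.79% of all genes were smaller), of 17 at 8 h (6.55%) and of 25 at 16 h (6.91%). It gave a larger response of 2 members at 8 h (6.81% of all genes were larger) and of 0 at 4 and 16 h. For SESN2 at 16 h the difference was 0.71 with AMPK deletion (adjusted p = 0.015) and -0.79 with TFEB and TFE3 deletion (adjusted p = 1.7e-07), beside 0.44 for SA5. For SHMT2 the values were 0.53 (adjusted p = 5.0e-06) and 0.03 (adjusted p = 0.75), beside 0.31 for SA5. Across the 12927 genes tested in both tables, Pearson's r between the SA5 and the AMPK deletion differences was -0.0051 at 2 h and 0.080 at 4 h. It was 0.055 at 8 h and 0.0077 at 16 h. All these values stand side by side without a test.

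A composite site of ATF4 and its C/EBP partners, TGATGNAA on either strand, stands in 1270 of the 35116 promoter windows (3.62%). It was found in 17 of 57 windows (29.8%) of the 35 stress response genes matched of 43. Of the 7 that passed at 16 h, 6 were matched and 2 hold it, CHAC1 and MARS. They are shown with ASNS, a member with the same motif whose difference did not pass. Capitals mark the site, which lies on the opposite strand in CHAC1 (chr15:40953251-40953280, plus strand, starting 209 bases before the gene start) and MARS (chr12:57488053-57488082, plus strand, starting 4 bases before). In ASNS (chr7:97872458-97872487, minus strand) it starts 68 bases before.
CHAC1: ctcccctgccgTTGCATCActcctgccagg
MARS: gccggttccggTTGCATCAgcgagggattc
ASNS: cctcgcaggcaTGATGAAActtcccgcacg
A match is a description of letters, and the sites of CHAC1 and MARS fall inside the longer transcript models of the deposited table.

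The other genes named at 16 h fall outside the stress response. TSC22D3, the glucocorticoid- and FOXO-responsive factor GILZ, was at 212, 203 and 211 TPM in SA5 cells and 159.7, 155 and 149 TPM in WT FNIP1 cells at 16 h. At 2 h the arms had overlapped, at 194 to 217 TPM in SA5 and 200.05 to 211 TPM in WT FNIP1 cells. The difference at 16 h was 0.35 (SE 0.06, adjusted p = 0.020, limma). RAB39B, a small GTPase of vesicle traffic, was at 4.65, 3.77 and 4.24 TPM in SA5 and 3.00, 2.96 and 2.43 TPM in WT FNIP1 cells at 16 h, a difference of 0.65 (adjusted p = 0.027). HOXB9, a homeobox factor, had 0.27 (adjusted p = 0.025), and 0.46 with all 30 libraries (adjusted p = 0.35). Its level in SA5 cells was 79.2, 81.6 and 78.04 TPM at 16 h, against 76.9 and 78.1 TPM under DMSO. In WT FNIP1 cells it fell, to 67.6, 71.1 and 67.8 TPM from 83.4, 78.1 and 81.2 TPM. Under median-ratio scaling TSC22D3 (adjusted p = 0.088) and HOXB9 (adjusted p = 0.082) did not pass.

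Among genes with a smaller response, RHOB, an endosomal and stress-responsive small GTPase, rose in both arms. It was at 84.9, 87.2 and 91.3 TPM at 16 h in SA5 cells, against 48.6 and 49.2 TPM under DMSO. WT FNIP1 libraries held 105, 113 and 121 TPM at 16 h, against 48.1, 50.2 and 46.3 TPM under DMSO. At 2 h the order had been the opposite, with 72.99 to 76.4 TPM in SA5 and 63.2 to 67.4 TPM in WT FNIP1 cells. The difference at 16 h was -0.38 (SE 0.06, adjusted p = 0.012, limma), and with all 30 libraries it was 0.06 (adjusted p = 0.88). ANKRD1, a target of YAP, was at low levels: 0.312, 0.347 and 0.207 TPM in SA5 and 2.14, 2.73 and 2.31 TPM in WT FNIP1 cells at 16 h. It was already lower under DMSO, at 0.392 and 0.406 TPM in SA5 and 0.571, 0.666 and 0.736 TPM in WT FNIP1 cells. It reached 1 TPM in WT FNIP1 libraries alone and was tested only because of them, so its difference of -1.15 is a description; with a pseudocount of 0.1 it was -2.10. FUBP1, a splicing and transcription regulator, had -0.26 (adjusted p = 0.025), and with all 30 libraries 0.66 (adjusted p = 0.41). It fell in SA5 cells, to 81.6 to 82.7 TPM at 16 h from 94.2 and 89.9 TPM under DMSO. In WT FNIP1 cells it was at 87.8 to 95.6 TPM at 16 h, against 82.25 to 88.2 TPM under DMSO. The remaining 5 of the 19 are microRNA, antisense, LOC and histone entries, whose counting is uncertain and which are not described.

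The change from 2 to 16 h with 991 was also compared between the arms, because it uses no DMSO library and so does not rest on the SA5 DMSO pair. It differed for 24 genes (0.181%), 20 with a larger rise or smaller fall in SA5 cells (0.15%) and 4 with the opposite (0.0301%). Under median-ratio scaling the 24 genes called split into 13 and 11, and with all 30 libraries 0 genes passed (limma). No library left out enters this comparison, so the differences themselves are the same with all 30 and the estimate of the spread alone changes. Of 43 stress response genes, 8 were among the 20: MARS, MTHFD2, PCK2, PSAT1, SESN2, SLC3A2, SLC6A9 and SLC7A5. SLC6A9, a glycine transporter, was at 7.51, 7.30 and 6.41 TPM at 16 h and 3.50, 3.30 and 3.19 TPM at 2 h in SA5 cells. In WT FNIP1 cells it was at 4.69, 4.26 and 5.09 TPM at 16 h and 4.25, 3.68 and 3.93 TPM at 2 h. SA5 was below WT FNIP1 at 2 h and above it at 16 h, a difference of 0.70 (SE 0.13, adjusted p = 0.012). CHAC1, higher in SA5 cells from 2 h on, had a difference of 0.08 here (adjusted p = 0.90). RHOB had -0.56 (adjusted p = 4.3e-05), and TSC22D3 0.43 (adjusted p = 0.0025).

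Immediate early genes respond within the first hours to growth factors and stress. In the same comparison FOSB and NR4A1 passed among 15 members, against 0.15% of all genes. EGR3 was also called and is set apart below. FOSB, an AP-1 subunit, was at 3.45, 2.90 and 3.37 TPM at 2 h in SA5 cells and 8.31, 7.35 and 8.17 TPM in WT FNIP1 cells. At 16 h it was at 0.684, 0.575 and 0.612 TPM in SA5 and 0.682, 0.923 and 0.963 TPM in WT FNIP1 cells. The level was thus lower in SA5 cells at 2 h and overlapped at 16 h, and the difference of 0.89 (SE 0.15, adjusted p = 0.0086, limma) came with a smaller fall in SA5 cells. The nuclear receptor NR4A1 had 0.70 (adjusted p = 0.0086). EGR3, a zinc finger factor, was at 0.945, 0.884 and 0.81 TPM at 2 h in SA5 cells and 2.10, 1.83 and 2.38 TPM in WT FNIP1 cells, the only libraries in which it reached 1 TPM. It was thus tested only because of the group where it is high, and its difference of 0.74 is given as a description. Under DMSO 9 of the 15 were lower and 1 higher in SA5 cells, against 10.5% and 3.12% of all genes. CD63, a tetraspanin of late endosomes, was at 173, 184 and 182 TPM at 16 h in SA5 cells and 239.7, 238 and 236 TPM in WT FNIP1 cells. At 2 h it was at 183, 185 and 199 TPM in SA5 and 204, 204 and 207 TPM in WT FNIP1 cells, and the difference was -0.29 (SE 0.04, adjusted p = 0.0057). It was the 1 lysosomal membrane gene of 33 that passed here, against 0.0301% of all genes in that direction. FTH1, the ferritin heavy chain that stores iron, had -0.19 (adjusted p = 0.011).

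Starting levels are the remaining difference between the arms. Under DMSO 414 genes were higher and 1402 lower in SA5 than in WT FNIP1 cells (3.12% and 10.5%), and the median difference over all genes was -0.05. Of 41 lysosomal hydrolases 2 were higher and 6 lower, with a median of -0.08, and of 41 autophagy genes 9 were lower and 0 higher, with a median of -0.09. Cytosolic ribosomal proteins were higher for 25 of 48. Stress response genes were higher for 8 and lower for 2 of 43, among them ASNS, at 71.5 and 71.9 TPM in SA5 and 57.4, 55.7 and 52.7 TPM in WT FNIP1 cells. These levels rest on 2 SA5 libraries, and the labels do not say whether each arm is 1 clone, so the FNIP1 form and the cell population cannot be told apart here.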

How the data were processed

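Polyadenylated RNA was sequenced by the authors. The submitters' processing notes name STAR, HOMER, FastQC and the build GRCh38, with no versions. The deposited tables hold TPM made by the authors, normalized separately in each table, with 1 transcript and its length for each of 27234 genes. TPM keep no read depth, so depth per library is unknown and precision comes from the spread of 2 or 3 libraries. Genes reaching 1 TPM in 3 or more libraries were kept, and log2(TPM + 1) was fitted with limma 3.58.1 in R 4.3.3, with 1 mean for each of 10 groups, 28 libraries and variances that follow the mean level. P-values were adjusted by Benjamini-Hochberg over all 13290 genes and called under 0.05. The same model was fitted to the AMPK and the TFEB and TFE3 tables. A fold change on this scale understates changes of low genes.

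Genes were named by rule: up to 6 larger and 6 smaller differences per time with a mean of at least 2 TPM in a group. The rule added up to 2 per direction and list, and a fixed panel. Antisense, LOC, microRNA and histone entries were passed over. Named outside the rule were MTHFD2, SHMT2, MARS and HOXB9, which passed at 16 h. So were other stress response members, such as PCK2, ATF4, DDIT3, GDF15 and SLC3A2. The genes of the comparison between 2 and 16 h were named by the same rule after its values were seen. Members and the 28 gene lists were chosen with earlier results of these data known. The main fit did not pair libraries by replicate number. Alternatives were all 30 libraries, 1 of the doubted libraries back, other scalings, pseudocount and filters, a replicate block, each replicate number left out and a fit of the groups compared. Promoter windows are from RefSeq (GRCh38.p14). Figures were drawn with matplotlib in Python.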

Additional observations from a re-analysis of the deposited data

Results flagged for a closer look

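These genes were flagged because the responses of the arms to 991 differed by the test of the difference itself (limma, adjusted p under 0.05). Values are SA5 minus WT FNIP1 on the log2(TPM + 1) scale; no explanation was tested.

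At 8 h the difference was 0.82 for CHAC1 and 0.46 for SLC7A5, the members of the stress response list that passed at that time. At 16 h it was 0.85 for CHAC1, 0.65 for RAB39B, 0.44 for SESN2, 0.43 for SLC7A5, 0.42 for PSAT1 and 0.35 for TSC22D3. It was 0.34 for MTHFD2, 0.31 for SHMT2, 0.28 for MARS and 0.27 for HOXB9. The response was smaller in SA5 cells for ANKRD1 at -1.15, RHOB at -0.38, FUBP1 at -0.26 and SQSTM1 at -0.25.

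In the change from 2 to 16 h the difference was 0.89 for FOSB, 0.77 for C8orf4, 0.74 for EGR3, 0.70 for SLC6A9, 0.70 for NR4A1 and 0.57 for SHISA2. C8orf4 stayed under 1 TPM in every SA5 library and lay between 1.63 and 4.60 TPM in WT FNIP1 libraries. C8orf4, EGR3 and ANKRD1 reached 1 TPM in WT FNIP1 libraries alone, so they were tested only because of the arm where they are high and their values are descriptions. SHISA2 peaked at 2 h in both arms, at 13.05 to 15.3 TPM in SA5 and 18.045 to 21.4 TPM in WT FNIP1 cells. The values were -0.56 for RHOB, -0.29 for CD63, -0.26 for CA2 and -0.19 for FTH1. CA2, carbonic anhydrase, was at 60.9, 61.98 and 62.8 TPM at 16 h in SA5 and 92.9, 89.8 and 89.6 TPM in WT FNIP1 cells.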

How the results depend on the processing

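Of 26 results for single genes, 23 kept direction and call under median-ratio scaling, 24 under quantile normalization, 25 with no filter and 23 with the replicate block, while 21 to 25 lost the call with the doubted libraries back, with the groups compared alone or with a replicate number left out. With all 30 libraries FUBP1 (0.66) and RHOB (0.061) at 16 h reversed, and with a replicate number left out the median difference of the stress response list at 2 h lay between -0.026 and 0.026, against 0.012, and was below 0 without replicate 1. That list's median at 16 h stayed between 0.15 and 0.37 under every alternative. The median correlation of deviations was 0.0073 over 118 pairs of same-numbered libraries, the lowest -0.12. It was -0.00066 over 234 pairs with different numbers. Of 28 libraries, 14 correlated best with their own number. The count expected without pairing was not worked out, so these values do not settle whether replicate numbers pair the libraries. As counts of genes called, the replicate block gave 0 at 8 h, 21 at 16 h, 37 at any time and 22 for the change from 2 to 16 h.

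The following counts of genes called differed from those reported. At 2 h 1 gene passed with a pseudocount of 0.1 and 1 with TPM of at least 5. At 4 h 1 passed with all 30 libraries, 2 with median-ratio scaling, 4 with quantile normalization and 2 with no filter. At 8 h 1 passed with all 30 libraries, 1 with only SA5 DMSO replicate 1 left out, 1 with quantile normalization, 0 with a pseudocount of 0.1, 4 with no filter and 1 with the 4 groups compared alone. At 16 h 2 passed with all 30 libraries, 2 with only SA5 DMSO replicate 1 left out, 29 with quantile normalization (18 larger) and 2 with the 4 groups alone. Of the stress response members, 7 passed at 16 h as reported, 1 with all 30 libraries, 1 with only SA5 DMSO replicate 1 left out, 1 with the 4 groups alone and 0 to 1 with a replicate number left out. At any time 0 passed with all 30 libraries and 5 with only SA5 DMSO replicate 1 left out. For the change from 2 to 16 h the counts were 0, 3 and, with the 4 groups alone, 3. With 1 replicate number left out, counts ranged from 0 to 4 at 2 h, 0 to 2 at 4 h, 0 to 1 at 8 h, 0 to 3 at 16 h, 0 to 6 at any time and 0 to 5 for the change from 2 to 16 h; omitting replicate 2 or 3 leaves 1 SA5 DMSO library, which is assumed to vary like the other groups. The cause of these shifts was not tested beyond the libraries each setting enters.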
